A study of Mus musculus with 7 samples.

Results

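The 33 genes described here are the mouse protein-coding genes whose symbol is Clec followed by a number, taken by that symbol from 21631 protein-coding genes of the RefSeq annotation (GRCm38.p6). A further symbol of that form, Clec2j, is annotated as a pseudogene and was left out. The study profiled the histone marks H3K4me1, H3K4me3 and H3K27Ac by ChIP-seq in bone marrow-derived leukaemia cells of BALB/c mice that carry retrovirally expressed mutant CSF3R and mutant CEBPA. The control cells received DMSO, and the treated cells received GSK-LSD1, an inhibitor of the histone demethylase LSD1, at 4 nM, both for 48 h. Cells of both treatments carried both mutant genes. There were 7 libraries, 1 for each mark and treatment and 1 input, and from them 1 segmentation of the genome for each treatment, which assigns every 200 bp bin to 1 of 6 chromatin states, E1 to E6.

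C-type lectins share a domain that was first known for binding sugars in the presence of calcium. In myeloid cells, many of the Clec receptors recognise fungal or bacterial glycans, or products of dying cells. Activating receptors such as Dectin-1, Dectin-2 and Mincle signal through the kinase Syk and the adaptor CARD9, directly or through the adaptor FcRγ. Inhibitory receptors such as DCIR and CLEC12A recruit tyrosine phosphatases. Others of the genes act outside myeloid cells, as ligands of natural killer cell receptors, on platelets or endothelium, or as secreted proteins, so the shared symbol does not mark a shared function.

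The deposited segmentations name the states by number only, without the marks that define them. E3 covered most of the genome, and is called background, and the other 5 states are called marked. E5 and E6 lay at a gene end far more often than elsewhere, and are together called TSS-type. E2 was the broadest marked state, E4 a smaller one, and E1 replaced E2 over long stretches in the treated cells. Equal state numbers may differ in their marks between the treatments, so the joined TSS-type class and background against marked are the firmer measures. Values of single states, E1 included, and changes from 1 state number to another compare the authors' labels, and may not compare the same marks. For each gene, the area of each state was measured in a window of 20 kb on either side of both gene ends, and an area was called higher or lower when it differed at least 1.5-fold and by at least 1 kb. With 1 segmentation a treatment there is no replicate error and no test. A difference between treatments cannot be told apart from a difference between libraries, and read depth is unknown.

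The TSS-type area was called higher with GSK-LSD1 at 16 of the 33 genes (48.5%), against 31.3% of all protein-coding genes, and lower at 0, against 0.532%. With the genes that did not change included, the median change was 1.0 kb for the Clec genes and 1.4 kb for all genes. Of the Clec genes, 19 had more TSS-type area, 1 had less and 13 were equal. Of all 21631 genes, 14296 (66.1%) had more and 929 (4.29%) had less. A gain of any size was thus not more frequent among the Clec genes. The direction rests on E6: with E5 alone, 2 Clec genes were called higher, against 9.15% of all genes, and 7 lower, against 22.6%. E1 and background were counted in the same way. E1 area was called higher at 20 Clec genes (60.6%), against 43.5% of all genes, and its median change was 7.0 kb, that of all genes 0.0 kb. It was called lower at 0 Clec genes, against 1% of all genes. Background area was called lower at 14 Clec genes (42.4%), against 18.1% of all genes, and higher at 5 (15.2%), against 11.2%.

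These members are not independent, since 22 of the 33 lie in 2 clusters on chromosome 6 and share windows. Merged, the 33 windows formed 18 separate regions of 1490.2 kb. TSS-type area was called higher in 8 of these regions and lower in 0, and background was called lower in 7 and higher in 5. No share over all genes merged in this way is given, so these region counts have no like comparison. Over the merged area, the TSS-type share went from 4.50% with DMSO to 8.36% with GSK-LSD1, or from 67.0 kb to 124.6 kb. In the merged windows of all genes the share went from 5.90% to 9.10%. The E1 share of the Clec windows went from 1.45% to 16.6%, against 0.778% to 7.39% around all genes, and background went from 34.7% to 21.2%, against 49.7% to 46.9%.

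The direction of the background change depended on the 2 chromosome 6 clusters. At the other 11 Clec genes, background covered 19.9% of the merged windows with DMSO and 35.9% with GSK-LSD1. There the TSS-type share still went from 4.93% to 7.72% and the E1 share from 1.7% to 11.3%. All 5 genes called higher in background lie outside the clusters, and 13 of the 14 called lower lie inside them.

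**Figure D1:**
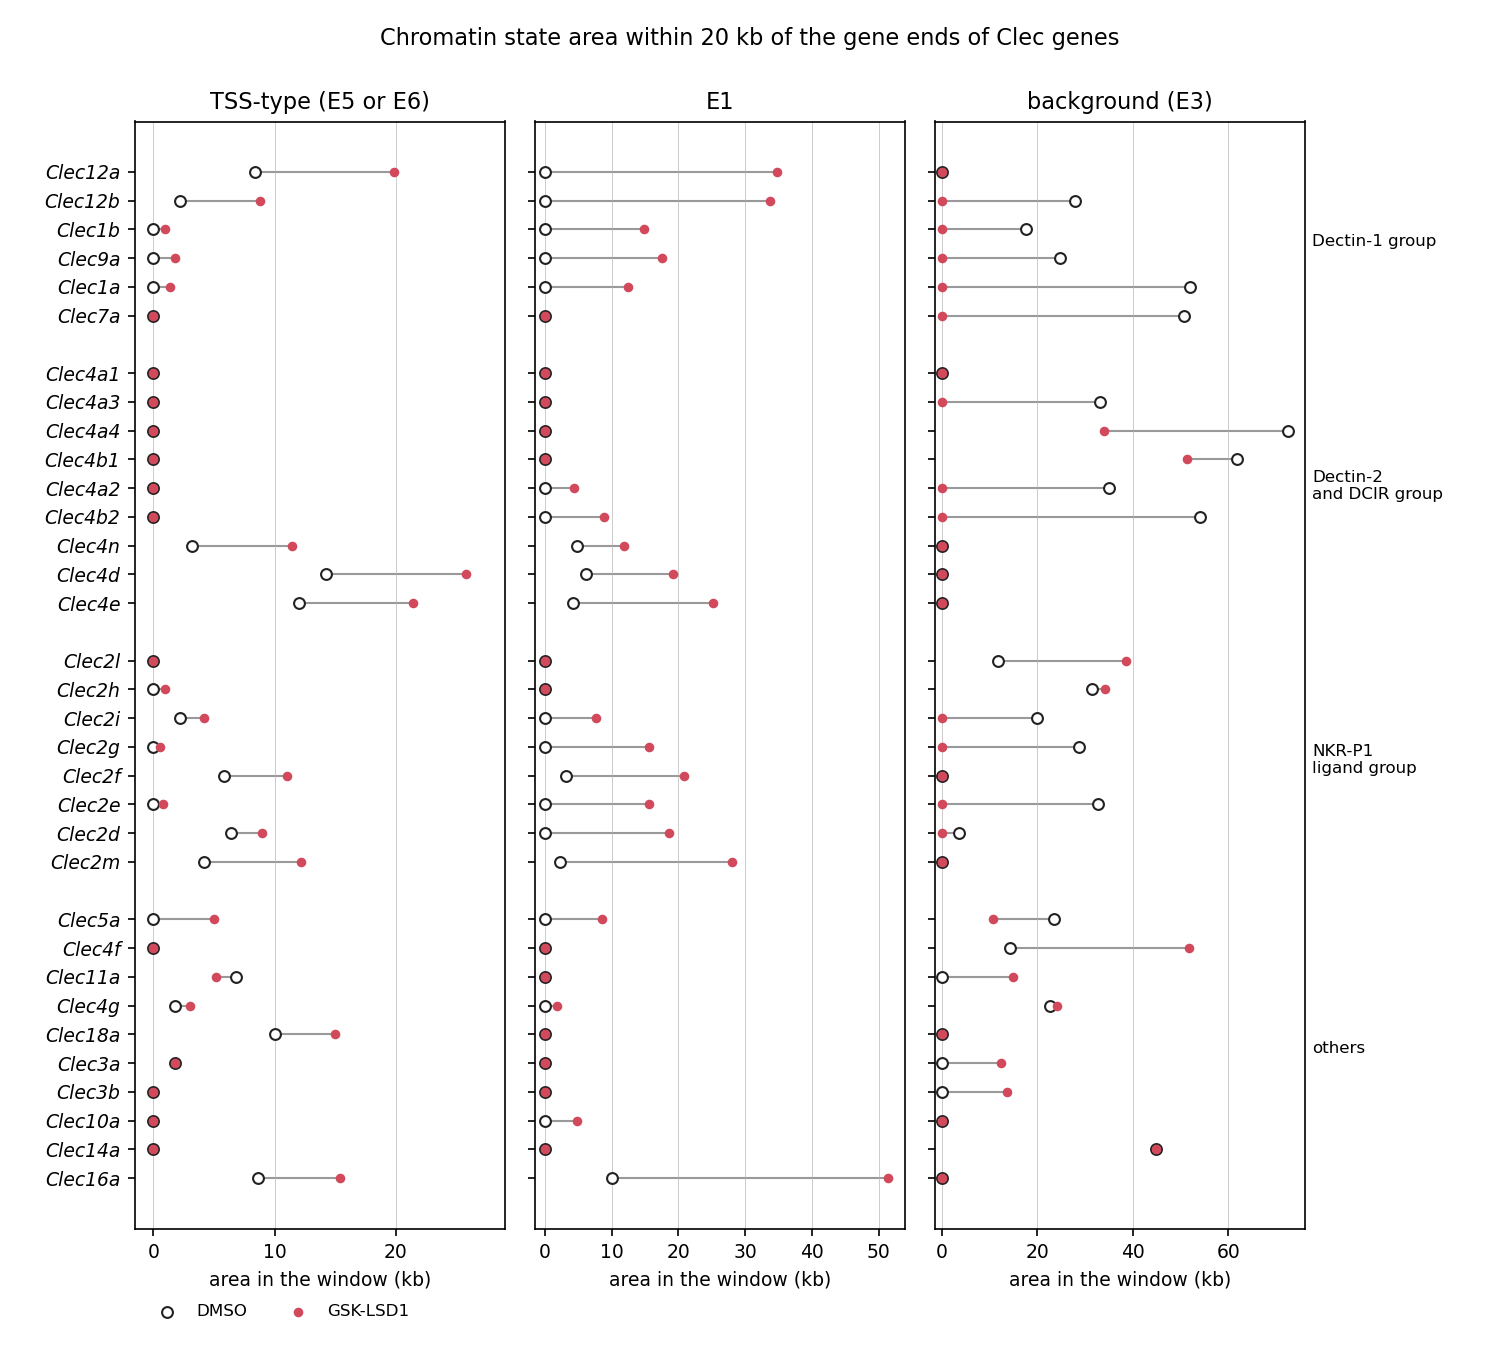
Area in kb of TSS-type state (E5 or E6), E1 and background (E3) in the 20 kb windows of each of the 33 Clec genes, in DMSO (open circles) and GSK-LSD1 (filled circles), grouped by receptor group, 1 segmentation each. Clec4d reached the highest TSS-type area of the set (14.2 kb to 25.8 kb), and Clec7a, Clec1a and Clec4b2 went from over 50 kb of background to 0.

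The receptors with the most TSS-type area were Mincle and its partner. Clec4d, which encodes the FcRγ-linked receptor MCL that pairs with Mincle, had 14.2 kb with DMSO and 25.8 kb with GSK-LSD1. Clec4e, which encodes Mincle, a receptor for mycobacterial cord factor, had 12.0 kb and 21.4 kb. Clec4n, which encodes the mannan receptor Dectin-2, had 3.2 kb and 11.4 kb. All 3 are neighbours at 1 end of the Clec4 cluster and share parts of their windows, and none had background in either segmentation.

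The other 6 genes of the Dectin-2 and DCIR group, Clec4a1, Clec4a2, Clec4a3, Clec4a4, Clec4b1 and Clec4b2, had no TSS-type bin in their windows with either treatment. They differed in background instead. Clec4b2 had 54.0 kb of background with DMSO and 0 with GSK-LSD1, a loss exceeded by 91 of all protein-coding genes. Clec4a2, which encodes the inhibitory receptor DCIR, went from 35.0 kb to 0, and Clec4a3 from 33 kb to 0. The background did not leave all of them: Clec4a4 kept 34.0 kb of 72.4 kb, and Clec4b1 kept 51.4 kb of 61.8 kb, the second of which was not called. Clec4a1 had none in either segmentation.

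In the Dectin-1 group, TSS-type area was called higher at 5 of 6 genes, against 31.3% of all genes. The windows of this group and of Clec2m merge into a single region, so these calls are not separate events. In that region TSS-type area went from 9.4 kb with DMSO to 25.4 kb with GSK-LSD1. Clec12a, which encodes an inhibitory receptor of myeloid cells that is also a surface marker of acute myeloid leukaemia blasts, had 8.4 kb with DMSO and 19.8 kb with GSK-LSD1. Its E1 area went from 0 to 34.8 kb, and 132 of the 21631 genes (0.610%) had a larger E1 change. Clec12b, which encodes a related inhibitory receptor, had 2.2 kb and 8.8 kb of TSS-type area, and its E1 area went from 0 to 33.8 kb. The remaining called genes had 0 with DMSO and little with GSK-LSD1: 1.8 kb at Clec9a, the dead-cell receptor of cross-presenting dendritic cells, 1.4 kb at Clec1a, a melanin receptor, and 1.0 kb at Clec1b, the platelet receptor for podoplanin. The last of these met the 1 kb minimum exactly. The areas at Clec9a, Clec1a and Clec1b came from regions of 1.0 kb, at chr6:129406201-129407200, and 0.8 kb, at chr6:129434001-129434800, which their windows share in part. The window of Clec12b also reaches into the TSS-type regions over Clec12a.

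Clec7a, which encodes Dectin-1, the β-glucan receptor, had no TSS-type bin in either segmentation. It was nevertheless among the genes whose windows differed most. Its background went from 50.6 kb to 0, and 133 of all genes lost more. That area was mostly E2 in the treated cells, which went from 0.4 kb to 44.0 kb, with E4 going from 0.4 kb to 7.4 kb. The bin that holds both annotated Clec7a start sites went from E3 to E4. The nearest TSS-type bin was 43216 bp from a gene end with DMSO and 26791 bp with GSK-LSD1.

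The Clec2 genes of the cluster belong to the Clr family, which includes ligands of the NKR-P1 receptors of natural killer cells. Clec2l was grouped with them here, though it lies apart from them and is not a Clr gene. TSS-type area was called higher at 4 of the 8 in this group, against 31.3% of all genes. Clec2m had 4.2 kb with DMSO and 12.2 kb with GSK-LSD1, Clec2f had 5.8 kb and 11 kb, and Clec2i had 2.2 kb and 4.2 kb. Part of the Clec2m area belongs to a region over Clec12a and is counted at both genes. In full, that region measured 4.8 kb with DMSO and 15.6 kb with GSK-LSD1. Clec2h had 0 and 1.0 kb, at the minimum for a call. Just outside the call lay Clec2e with 0 and 0.8 kb, Clec2g with 0 and 0.6 kb, and Clec2d, which encodes Clr-b, with 6.4 kb and 9.0 kb. E1 was called higher at 6 of these 8 genes, against 43.5% of all genes, and at Clec2m it went from 2.2 kb to 28 kb. Background was larger with GSK-LSD1 at 2 of the 8. Clec2l, which lies outside the cluster, went from 11.8 kb to 38.6 kb, with no TSS-type bin in either segmentation, and Clec2h went from 31.4 kb to 34.2 kb, which was not called.

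The other 10 genes lie singly and did not move together. Clec16a, an endosomal protein that takes part in mitophagy and is not a myeloid lectin receptor, had 8.6 kb and 15.4 kb of TSS-type area. Its E1 area, 10 kb with DMSO and 51.4 kb with GSK-LSD1, changed more than that of any other Clec gene, and 49 of all genes changed more. Clec18a, which encodes a secreted lectin, had 10 kb and 15.0 kb of TSS-type area and met the 1.5-fold minimum exactly. Most of that area lay over neighbouring genes. With DMSO, regions of 4.2 kb, 2.0 kb and 3.4 kb overlapped other genes only, and 0.4 kb lay in Clec18a. With GSK-LSD1, regions of 8.0 kb and 6.4 kb overlapped other genes only, and 0.6 kb lay in Clec18a. Clec4g, a liver endothelial lectin, had 1.8 kb and 3.0 kb of TSS-type area. Clec5a, which encodes the DAP12-coupled receptor MDL-1 of myeloid cells, had no TSS-type bin with DMSO and 5.0 kb with GSK-LSD1. With DMSO the nearest TSS-type bin lay 101498 bp from a Clec5a end, and with GSK-LSD1 it lay 5 bp from one, while the start-site bin itself was E4 in both.

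Clec11a, which encodes a secreted growth factor of bone and marrow, was the single member with less TSS-type area, 6.8 kb with DMSO and 5.2 kb with GSK-LSD1, which was not called. The decrease lay over the neighbouring gene Shank1, where a region of 3.2 kb with DMSO measured 1.4 kb with GSK-LSD1. Regions in Clec11a measured 2.2 kb and 0.8 kb with DMSO, and 1.8 kb and 1.4 kb with GSK-LSD1. A region of 0.6 kb lay outside genes in each segmentation. Background in the Clec11a window went from 0 to 14.8 kb. Background was also called higher at Clec4f, the Kupffer cell lectin, where it went from 14.2 kb to 51.8 kb, at Clec3a, where it went from 0 to 12.4 kb, and at Clec3b, which encodes tetranectin, where it went from 0 to 13.6 kb. At Clec4f the whole window was background in the treated cells. The window of Clec14a, an endothelial gene, was all background in both segmentations, at 44.8 kb. Clec10a, which encodes a galactose-binding lectin of macrophages, had no TSS-type bin in either, and its E1 area went from 0 to 4.8 kb.

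In all, 12 of the 33 genes (36.4%) had no TSS-type bin in their windows in either segmentation, against 27.9% of all genes. In background, 10 Clec genes (30.3%) had at least 20 kb with DMSO and none with GSK-LSD1, against 4.06% of all genes. All 10 lie in the 2 clusters, where neighbouring windows overlap, so this count is not of 10 separate events.

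At the gene ends themselves fewer bins differed. A TSS-type bin lay at an end of 5 Clec genes with DMSO, namely Clec4e, Clec2d, Clec12a, Clec11a and Clec16a, or 15.2%, against 51.7% of all genes. With GSK-LSD1 it lay at 8 (24.2%), against 54.8%. The 3 that gained one (9.09%, against 4.11% of all genes) were Clec4d, Clec2i and Clec12b, and 0 lost one, against 0.985%. At Clec4d the start-site bin went from E4 to E6, and at Clec2i the bin that holds both annotated start sites went from E4 to E5. The gained end of Clec12b is not its start site in the promoter table, which stayed E2. The gene model of Clec12b spans chr6:129375513-129427634 and overlaps Clec1b, Clec9a and part of Clec1a, so these areas cannot be assigned to 1 gene. At Clec4e and Clec2d the start-site bin was E6 in both, at Clec12a it went from E5 to E6, and at Clec16a it was E5 in both.

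The start-site regions of 5 members are shown because their states differed in kind: a gain at Clec4d and Clec2i, a TSS-type state in both at Clec4e and Clec12a, and a change from background to E4 at Clec7a. Each is 250 bases before to 50 bases after the start, 5′ to 3′ on the gene's strand, from RefSeq (GRCm38.p6). Capitals mark the searched motifs on either strand: GAGGAA, the core bound by the myeloid factor PU.1, TTGCNNAA for C/EBP factors, the family of the mutated CEBPA, AATCACNG for GFI1, a repressor that recruits LSD1, and TGTGGT for RUNX factors. Clec4d is at chr6:123261857-123262156 (+), Clec4e at chr6:123289822-123290121 (-), Clec2i at chr6:128887337-128887636 (+), Clec12a at chr6:129349994-129350293 (+) and Clec7a at chr6:129472730-129473029 (-).
Clec4d: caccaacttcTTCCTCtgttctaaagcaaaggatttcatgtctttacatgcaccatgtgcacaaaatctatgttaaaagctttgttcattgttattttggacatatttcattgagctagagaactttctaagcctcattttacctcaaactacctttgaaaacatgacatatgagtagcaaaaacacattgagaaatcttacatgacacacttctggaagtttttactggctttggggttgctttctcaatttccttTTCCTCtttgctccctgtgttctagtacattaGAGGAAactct
Clec4e: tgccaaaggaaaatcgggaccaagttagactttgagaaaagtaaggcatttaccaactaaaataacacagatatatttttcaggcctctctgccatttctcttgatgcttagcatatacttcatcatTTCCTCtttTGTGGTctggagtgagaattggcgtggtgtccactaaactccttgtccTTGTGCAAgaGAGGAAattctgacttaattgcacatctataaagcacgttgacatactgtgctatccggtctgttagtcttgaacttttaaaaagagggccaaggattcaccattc
Clec2i: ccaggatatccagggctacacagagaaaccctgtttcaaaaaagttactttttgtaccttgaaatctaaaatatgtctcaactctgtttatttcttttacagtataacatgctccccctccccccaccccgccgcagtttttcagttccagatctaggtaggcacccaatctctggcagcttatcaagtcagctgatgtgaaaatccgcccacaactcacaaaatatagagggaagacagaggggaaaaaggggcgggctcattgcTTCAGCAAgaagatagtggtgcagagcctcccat
Clec12a: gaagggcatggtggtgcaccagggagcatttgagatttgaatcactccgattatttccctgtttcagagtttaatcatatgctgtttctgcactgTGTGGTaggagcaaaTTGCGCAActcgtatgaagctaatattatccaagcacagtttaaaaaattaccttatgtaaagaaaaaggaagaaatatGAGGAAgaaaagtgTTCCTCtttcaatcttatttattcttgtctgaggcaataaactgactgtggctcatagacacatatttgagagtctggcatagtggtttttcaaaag
Clec7a: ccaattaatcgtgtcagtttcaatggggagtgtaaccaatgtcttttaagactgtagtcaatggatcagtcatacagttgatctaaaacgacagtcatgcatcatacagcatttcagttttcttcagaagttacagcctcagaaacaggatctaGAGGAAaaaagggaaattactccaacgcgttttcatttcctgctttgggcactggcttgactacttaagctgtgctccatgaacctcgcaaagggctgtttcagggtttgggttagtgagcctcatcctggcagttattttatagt

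At Clec4e the PU.1 core lay 123 and 56 bases before the start site, the C/EBP letters 66 and the RUNX letters 114. At Clec12a the PU.1 core lay 61 and 47 bases before it, C/EBP 140 and RUNX 155. Clec7a had 1 PU.1 core, 96 bases before the start. None of the 5 held the GFI1 letters. Of the 33 genes, 26 were in the promoter table, with 29 promoters in all. GAGGAA occurred in 16 of the 29 (55.2%), against 27.2% of 21045 promoters of the same length, TTGCNNAA in 6 (20.7%, against 10.3%), TGTGGT in 7 (24.1%, against 14.7%) and AATCACNG in 1 (3.45%, against 3.16%), at Clec4b2. A match describes these letters and not binding, and members of 1 cluster share ancestry.

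The larger cluster, from Clec2h to Clec7a, holds 13 Clec genes and 6 others, Klrb1, Klrb1c, Klrb1b, Klrb1f, BC035044 and Cd69, at chr6:128662385-129472785. It was mapped as 1 locus of 850.6 kb that includes 20 kb on either side. Marked states covered 69.0% of it with DMSO and 92.1% with GSK-LSD1. Background went from 263.8 kb to 67.4 kb, E1 from 12.8 kb to 211.4 kb and TSS-type area from 62.4 kb to 131.2 kb. The TSS-type difference lay in E6, which went from 2.73% to 13.1% of the locus, while E5 went from 4.61% to 2.28%.

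Most of the TSS-type segments in this locus lay away from gene ends in both segmentations. There were 19 TSS-type regions with DMSO and 43 with GSK-LSD1. All 19 overlapped a region of the treated cells, and 26 of the 43 had no overlap in DMSO. Of the 43, 34 lay more than 2 kb from the end of any protein-coding gene, as did 14 of the 19. No share over the genome is given for this distance, so it is not shown to be particular to this locus. The name TSS-type thus does not place each of these regions at a start site. The longest region with GSK-LSD1 measured 15.6 kb and covered Clec12a, at chr6:129344801-129360400, and the longest with DMSO measured 9.0 kb.

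Background gaps between the genes of this locus were fewer in the treated cells. Marked stretches touching it numbered 9 with DMSO and 3 with GSK-LSD1. In the treated cells 1 stretch of 811.0 kb, at chr6:128757801-129568800, held 12 of the 13 Clec genes, all but Clec2h, and was number 109 by length of 8129 in the genome. The longest with DMSO measured 243.8 kb and was number 679 of 10896. The 811.0 kb stretch ran past Clec7a over Olr1, the oxidised LDL receptor gene, whose background went from 55.0 kb to 0, and ended within Klre1, where 27.6 kb of 52.8 kb remained.

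**Figure D2:**
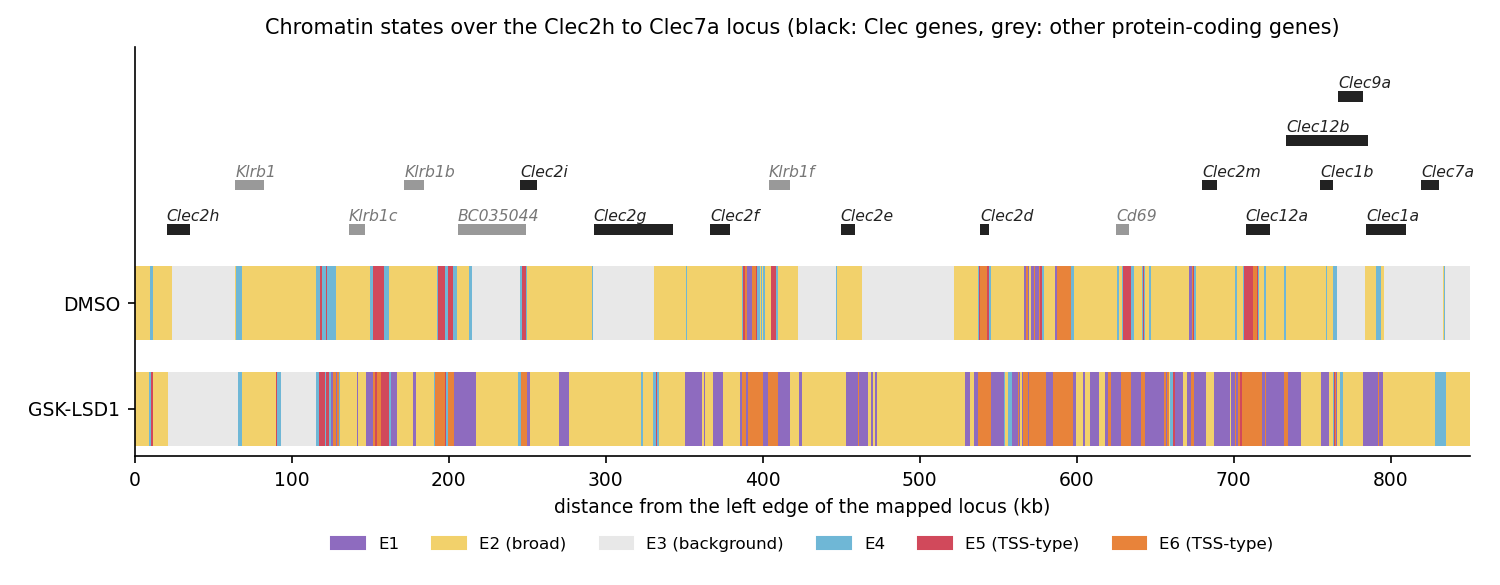
Chromatin states along the cluster from Clec2h to Clec7a, plotted as distance in kb from the mapped start, with 1 track for DMSO, 1 for GSK-LSD1 and the gene positions above (Clec genes black, others grey). TSS-type regions number 19 with DMSO and 43 with GSK-LSD1, and background goes from 263.8 kb to 67.4 kb, and what remains lies at the Clec2h side.

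The smaller cluster, from Clec4a1 to Clec4e at chr6:122921848-123289871, holds 9 Clec genes and no other protein-coding gene. Over 408.2 kb with its flanks, background went from 215.6 kb with DMSO to 70.6 kb with GSK-LSD1, and marked states from 47.2% to 82.7%. TSS-type area went from 15.4 kb to 29.6 kb and was confined in the treated cells to E6. E5 went from 1.18% to 0, against 5.40% to 4.31% around all genes. TSS-type regions numbered 4 and 6. All but 1 of each lay at the Clec4n to Clec4e side, where regions of 11.4 kb over Clec4d, at chr6:123259001-123270400, and of 12.6 kb over Clec4e, at chr6:123281801-123294400, were present with GSK-LSD1. With DMSO the region over Clec4e measured 9.6 kb. At the 20 kb limit the cluster was thus split in both segmentations, with Mincle, MCL and Dectin-2 within 20 kb of TSS-type regions and the DCIR and DCAR genes not. The split depended on that limit. With GSK-LSD1 the nearest TSS-type bin lay 23246 bp from an end of Clec4b1, 25490 bp from Clec4a2 and 22330 bp from Clec4b2. With 50 kb windows these genes were called higher, and Clec4a1, Clec4a3 and Clec4a4 were not.

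**Figure D3:**
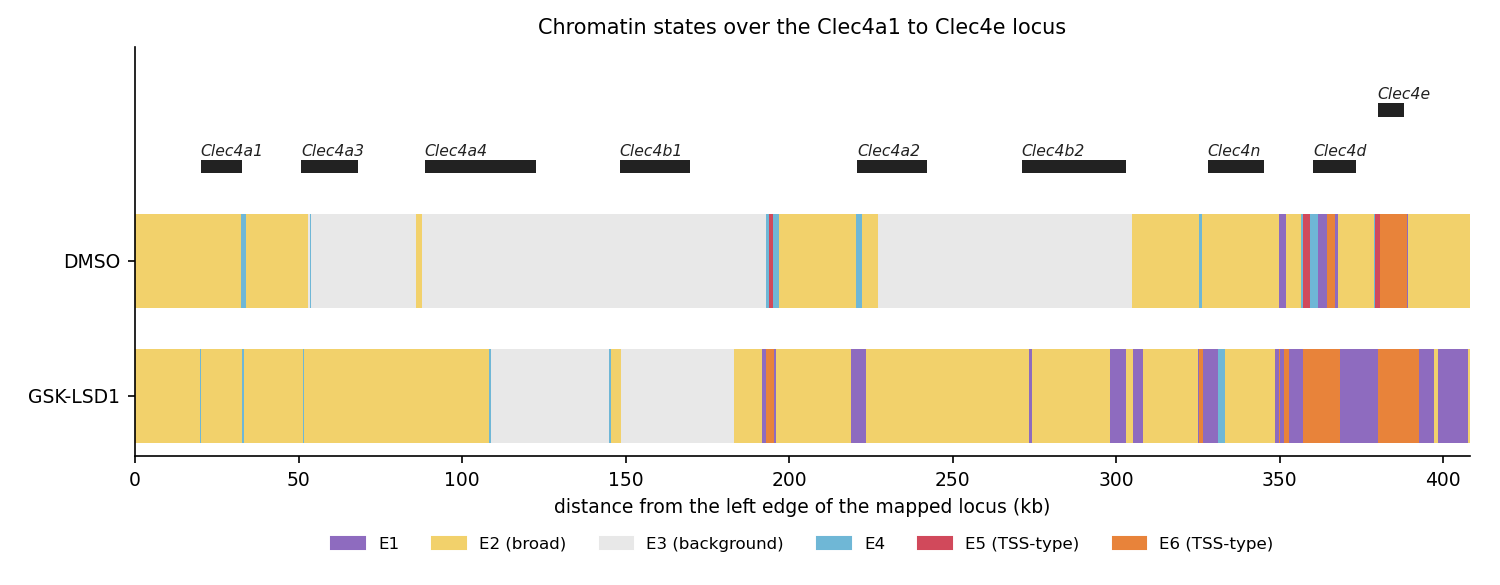
Chromatin states along the cluster from Clec4a1 to Clec4e, plotted as distance in kb from the mapped start, for DMSO and GSK-LSD1, with gene positions above. TSS-type area, 15.4 kb with DMSO and 29.6 kb with GSK-LSD1, lies mostly at the Clec4e side, and background goes from 215.6 kb to 70.6 kb over the DCIR and DCAR genes.

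Followed bin by bin, 84.8% (95% Wilson interval 82.8% to 86.7%) of the background of the Clec2h to Clec7a locus became marked, and 67.2% (64.4% to 70.0%) of that of the Clec4 locus. In the windows of all genes the share was 17.0%, and over the genome 9.0%. The intervals cover counting error only, and neighbouring bins are not independent, so they are too narrow. In the reverse direction, 0 of the marked bins of the Clec4 locus became background, which allows up to 0.397%, and 4.67% of those of the other locus did, against 11.1% around all genes. The background that was lost became mostly E2, as it did around all genes. In the Clec2h to Clec7a locus, 200.6 kb of the 223.8 kb lost became E2. Around all genes, 63781.8 kb of 71355.2 kb did. TSS-type area came from other marked states. Of 63.2 kb that entered it over all Clec windows, 32.8 kb had been E4 and 0.2 kb had been background, and 5.6 kb left it. Around all genes, 28810.8 kb entered it, of which 21567.0 kb had been E4 and 629.0 kb background, and 1772.0 kb left it. The E1 of the treated cells in the Clec windows had been E2 for 83.7% of its area, against 75.0% around all genes.

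**Figure D4:**
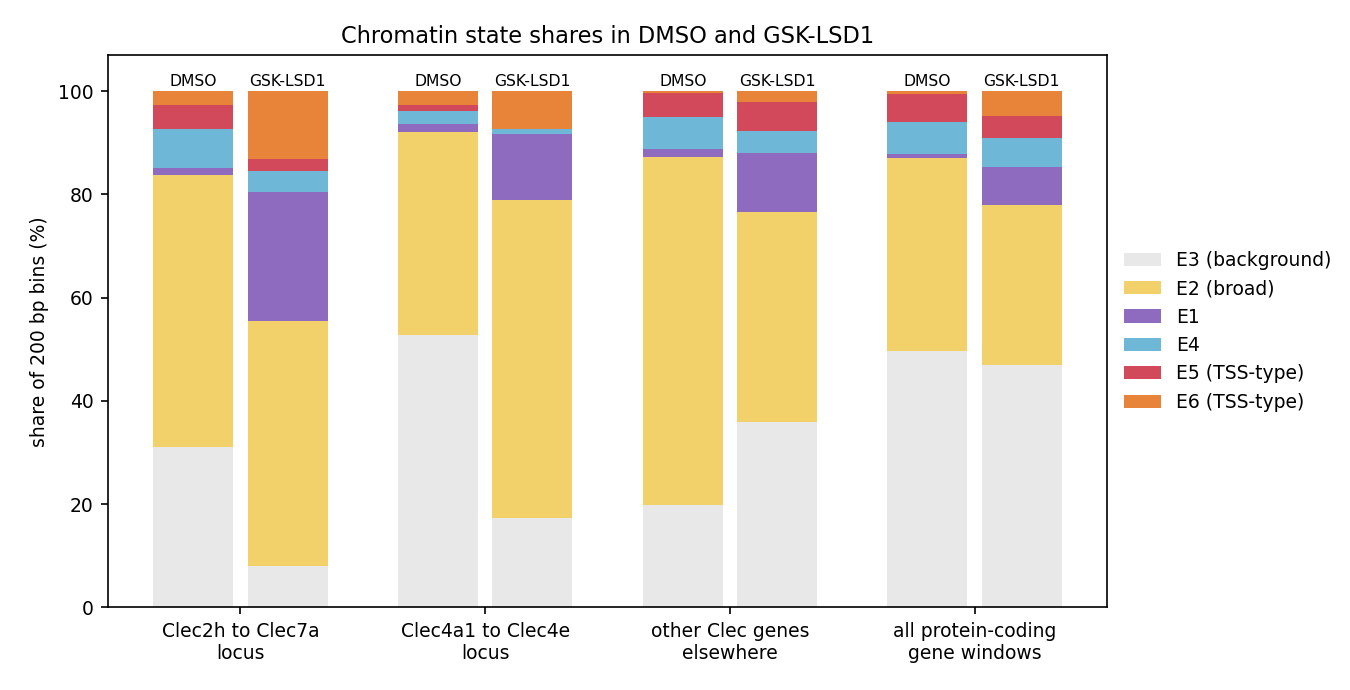
Percent of area in each chromatin state with DMSO and with GSK-LSD1, for both chromosome 6 loci, the merged windows of the 11 Clec genes elsewhere and the windows of all protein-coding genes, 1 segmentation each. Background goes from 31.0% to 7.92% in the Clec2h to Clec7a locus, against 49.7% to 46.9% around all genes, and E1 goes from 1.5% to 24.9%, against 0.778% to 7.39%.

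The genes through which these receptors signal were compared as a list of 24, chosen by pathway. TSS-type area was called higher at 17 of them, against 31.3% of all genes, and lower at 0, against 0.532%. The median change was 5.7 kb, against 1.4 kb for all genes. The largest change was that of Vav1, an exchange factor downstream of Syk, with 12.6 kb and 35.6 kb. Syk, the kinase downstream of Dectin-1 and Mincle, had 11.2 kb with DMSO and 21.2 kb with GSK-LSD1. Plcg2, a phospholipase activated by Syk, had 8.4 kb and 18.4 kb, and Prkcd, the kinase that acts on CARD9, had 5.0 kb and 15.4 kb. Fcer1g, which encodes FcRγ, had 7.4 kb and 14 kb, and Tyrobp, which encodes DAP12, had 11 kb and 18.6 kb. Card9 itself had 10 kb and 12.6 kb and was not called. Ptpn6, which encodes the phosphatase SHP-1 used by the inhibitory receptors, had 19.8 kb and 38.6 kb, and a TSS-type bin appeared at its end, as at that of Nlrp3. A TSS-type bin already lay at an end of 19 of the 24 with DMSO, and of 21 with GSK-LSD1, against 51.7% and 54.8% of all genes. For the Clec genes these counts were 5 and 8 of 33, below the shares of all genes.

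The labelled cell type was checked on marker lists by whether a TSS-type bin lay at a gene end. This held for 8 of 13 myeloid progenitor markers with DMSO and 11 with GSK-LSD1, the additions being Mpo, Ctsg and Itgam, against 51.7% and 54.8% of all genes. It held for 5 and 6 of 8 monocyte markers, with Adgre1 added, and for 3 and 4 of 7 dendritic cell markers, with Zbtb46 added. It held for 3 and 4 of 8 natural killer cell markers, with Il2rb added, while Ncr1, Klrb1c, Klrd1 and Prf1 had none. For T cells it held for 0 of 5 in both, for B cells for 1 of 4 (Cd79a), for megakaryocytes for 3 of 5, and for endothelium and stroma for 1 of 5. With DMSO the myeloid progenitor and megakaryocyte lists were both near the share of all genes, so this check separates the cell types poorly. The part that other cells had in the values of Clec9a, Clec1b or the Clec2 genes was not tested.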

How the data were processed

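The authors deposited 1 segmentation for each treatment, as intervals with a state label from E1 to E6. Per the submitters' processing notes, reads were aligned with Bowtie to mm10 (GRCm38). The sources used here give neither the Bowtie version nor the segmentation tool, its settings or whether both treatments were fitted together. The segmentation pools 3 marks, so single libraries were not analysed here.

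Gene positions came from the RefSeq table of GRCm38.p6, on chromosomes 1 to 19 and X, and promoters from the RefSeq promoter table of the same build. States were read on the 200 bp grid with Python and numpy, whose versions were recorded. A gene-end state was that of its bin. Shared bins were counted once in merged areas, and genes less than 1 Mb apart formed a locus. The area count was checked on a copy of the DMSO segmentation, with 2 or 4 kb of E6 written into the windows of 200 genes. The planted areas were counted back exactly, which checks the counting and not the calls. Genes named in the text are all 33 members, and from the other lists those with the largest TSS-type change, those that gained an end. Syk tied with Plcg2 under that rule. Other genes of these lists and markers named in the text fall outside it and were named for their role or position with values known. A further gene under the rule is not reported here. The members, lists, state names and thresholds were chosen with earlier results of these data known.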

Additional observations from a re-analysis of the deposited data

How the results depend on the processing

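Of 70 values recomputed under another choice, 42 stayed within their interval or within 1.5 times the count, 25 moved and 3 changed sign. With E5 alone as TSS-type the changes in share turned negative: -0.30 percentage points over all Clec windows against 3.87, and -2.33 over the Clec2h to Clec7a locus against 8.09. It then called 2 Clec genes higher (9.15% of all genes) and 7 lower (22.6%). By E5 alone, 1 Clec gene gained an end (2.95% of all genes) and 3 lost one (22.8%). With 2 signalling partners called higher, the TSS-type results rest on E6. The 3.87 became 4.85 with 10 kb windows, 2.98 without the Clec2h to Clec7a locus, 2.79 without both loci and 2.79 with E4 added. The E1 change of 15.14 points became 17.45 at 10 kb, 13.03 at 50 kb, 19.56 with gene bodies added, 10.19 without that locus and 9.63 without both. The marked change of 13.54 became 10.67 at 50 kb, 20.11 without the non-receptor genes, 17.93 with E2 as background, 4.85 without that locus and -15.99 without both, a choice added after seeing the data. In that locus the marked change of 23.09 became 34.15 when gaps over 0.2 Mb split it, and 28.14 with E2 as background. A rule of 2-fold and 2 kb left 5 of 16 genes called higher (9.67% of all genes). Merged windows left 8 regions higher in TSS-type area and 7 lower in background, with no like share over all genes. Any decrease in TSS-type area was seen at 1 gene, against 4.29% of all genes. Gained ends numbered 5 within 1 kb of an end, against 2.64% of all genes. At start sites they numbered 2, against 2.58% of the genes in the promoter table. No paired analysis was possible because each treatment has 1 pooled segmentation. Without read counts, no depth limit can be given.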

Other observations

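Of 51 other genes with a C-type lectin-like domain, chosen by family, TSS-type area was called higher at 14, against 31.3% of all genes, and lower at 0, against 0.532%. Of the 51, 22 had more and 29 were equal, and the median change was 0.0 kb, against 1.4 kb for all genes. Selp, an adhesion receptor of platelets and endothelium, had 4.2 kb with DMSO and 14.4 kb with GSK-LSD1, and Sele, an adhesion receptor of endothelium, had 7.8 kb and 17.0 kb. A TSS-type bin appeared at an end of Selp, of Klrb1f, an NKR-P1 receptor gene inside the Clec2h to Clec7a locus (9.0 kb and 17.6 kb), and of Cd72, an inhibitory receptor of B cells (5.4 kb and 6.6 kb). Klrb1c, also inside that locus, had 9.0 kb and 19.2 kb, and Cd69, an early activation antigen in it, had 5.6 kb and 11 kb. Cd209a to Cd209g, the mouse DC-SIGN family, had no TSS-type bin in their windows with either treatment.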
